A study of Mus musculus with 2 samples.

Results

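Adult fast IIb fibre nuclei are described here, the myonuclei of the fastest muscle fibres, in 2 libraries of single-nucleus RNA sequencing from mouse tibialis anterior. They were selected on measured counts, barcode by barcode. A barcode needed 2000 or more UMIs (unique molecular identifiers, each standing for 1 captured RNA molecule) and at most 5% of them from mitochondrial genes. Ttn, Neb, Trdn and Dmd, 4 genes of the fibre's contractile and membrane machinery, had to take at least 1% of its UMIs, and Myh3, the embryonic myosin, less than 0.1%. At most 1 UMI could come from Ptprc, Pdgfra and Pax7, genes of leukocytes, fibroadipogenic progenitors and satellite cells. Myh4, the IIb myosin heavy chain, had to reach 2 UMIs and exceed the sum of Myh1, Myh2 and Myh7, the IIx, IIa and slow myosins. This gave 633 nuclei of 23616 barcodes that passed the UMI and mitochondrial limits.

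Of these, 331 came from the library labelled AHRfl/fl, out of 16986 barcodes, and 302 from the one labelled AHRmKO, out of 6630. Chronic kidney disease was common to the males of both libraries, which were 16 to 20 weeks old and were sampled 5 days after surgical ligation of the femoral artery. The labels give both libraries the same cross, a floxed Ahr allele (AHRtm3.1Bra/J) with Tg(ACTA1-cre/Esr1*)2Kesr/J, a transgene that drives an oestrogen-receptor-fused Cre from the skeletal actin promoter. Such a Cre acts in muscle fibres once an inducer is given, and the labels name no inducer and do not say whether the AHRfl/fl animals carried the transgene. The number of animals pooled into each library is not given. With 1 library per group there is no replicate and no test between groups. Every interval below is at 95%, covers counting error only, and says nothing of the spread between animals.

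Skeletal muscle fibres are classed by the myosin heavy chain they use. IIb fibres contract fastest, rely on glycolysis, hold few mitochondria and are prone to wasting. A fibre that is rebuilt after necrosis first uses the embryonic and neonatal myosins and carries NCAM1, an adhesion molecule that mature fibres hold at the nerve contact and that also returns when the nerve is lost. In wasting, FOXO transcription factors switch on the ubiquitin ligases MuRF1 (Trim63) and atrogin-1 (Fbxo32), which tag muscle proteins for breakdown. AHR, the aryl hydrocarbon receptor, is a transcription factor that small molecules activate, among them tryptophan metabolites that accumulate when kidneys fail.

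The promoters of 3 genes that the results turn on are shown, chosen because each holds a muscle-type E-box just upstream of the start. Of 10 fibre genes looked up in RefSeq's promoter table (build GRCm38.p6), 6 had an entry. The E-box is in 3 of these 6, the ones shown, and in none of Ttn, Pvalb and Mybpc2. Each window runs from 250 bases before to 50 bases after the start, on the strand of the gene. Capitals mark the E-box CAGCTG, which reads the same on both strands, and the FOXO element TGTTTAC or its complement GTAAACA, and these motifs do not overlap. Trim63 (chr4:134314870-134315169, plus strand), Myh4 (chr11:67237562-67237861, plus strand) and Mylk4 (chr13:32783915-32784214, minus strand) read as follows.
Trim63: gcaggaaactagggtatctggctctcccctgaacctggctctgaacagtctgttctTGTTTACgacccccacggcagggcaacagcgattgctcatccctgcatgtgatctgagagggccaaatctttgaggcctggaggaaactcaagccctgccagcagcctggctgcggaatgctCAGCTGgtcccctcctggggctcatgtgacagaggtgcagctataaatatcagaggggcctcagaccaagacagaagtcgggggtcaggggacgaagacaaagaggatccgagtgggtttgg
Myh4: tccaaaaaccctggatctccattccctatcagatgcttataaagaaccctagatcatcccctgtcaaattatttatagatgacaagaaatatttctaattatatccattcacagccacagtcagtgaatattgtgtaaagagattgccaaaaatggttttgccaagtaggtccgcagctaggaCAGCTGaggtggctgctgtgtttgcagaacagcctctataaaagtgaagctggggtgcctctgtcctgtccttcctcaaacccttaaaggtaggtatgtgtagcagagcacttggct
Mylk4: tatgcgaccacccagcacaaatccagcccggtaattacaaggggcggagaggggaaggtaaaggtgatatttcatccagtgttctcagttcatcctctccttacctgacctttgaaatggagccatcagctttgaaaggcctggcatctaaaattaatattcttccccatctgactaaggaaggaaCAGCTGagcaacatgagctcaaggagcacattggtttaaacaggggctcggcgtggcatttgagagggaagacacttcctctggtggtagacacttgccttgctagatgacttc
The E-box begins 72 bases before the start in Trim63, 67 in Myh4 and 64 in Mylk4, and Trim63 also holds the FOXO element 194 bases before its start. Of 32851 promoter windows of this length, 16.3% hold the E-box, 3.65% the FOXO element and 0.557% both. A match in these windows is a string of letters and was not tested as a binding site.

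Of the 4 markers of the label, the choice of nuclei used Myh4 and Ttn, so these check nothing. Mylk4 had a UMI in 57.1% of the nuclei in AHRfl/fl and 92.7% in AHRmKO, and Trim63 in 72.5% and 87.1%. Thinned to 2000 UMIs these shares were 40.5% and 91.1% for Mylk4 and 58.0% and 82.1% for Trim63. Barcodes with 3 or more Ptprc UMIs and under 1% fibre genes held Mylk4 in 3.53% and 10.4% of cases and Trim63 in 7.36% and 5.22%. IIb fibre nuclei made up 1.95% (1.75 to 2.17, Clopper-Pearson) of the barcodes in AHRfl/fl and 4.56% (4.07 to 5.09) in AHRmKO. With a limit of 4000 UMIs in place of 2000 the order of these shares turned, at 3.01% in AHRfl/fl and 2.29% in AHRmKO. The median depth was 4743 UMIs in AHRfl/fl and 2968 in AHRmKO. The 4 fibre genes took a median of 4.05% and 9.72% of the UMIs, and mitochondrial genes 0.458% and 1.95%. Myh4 had a median of 9 UMIs per nucleus in AHRfl/fl and 18 in AHRmKO. CPM is the standard depth-scaled unit, the UMIs of a gene over all UMIs summed across the nuclei named, times 1000000. At the Myh4 limit, the 47 AHRfl/fl nuclei with exactly 2 Myh4 UMIs had 1816 CPM of Trim63, and the 101 left out with 1 Myh4 UMI had 2088 CPM. In AHRmKO the 7 nuclei just inside had 2197 CPM and the 36 just outside 751 CPM. The Myh3 limit cut through a crowded range in AHRfl/fl, where 277 otherwise fitting nuclei had Myh3 between 0.1% and 0.2% of UMIs, against 41 in AHRmKO. Those 277 had 307 CPM of Trim63, and the 279 IIb fibre nuclei with some Myh3 had 1177. Of 30 barcodes that passed the UMI and mitochondrial limits in both libraries, none was a IIb fibre nucleus in both. The barcodes of 2 IIb fibre nuclei also passed these limits in the other library.

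Free RNA in the droplets sets a background. It was read from barcodes of 200 to under 500 UMIs, and if it gave all UMIs of Adgre1, Mrc1, Csf1r, Pdgfra and Flt1, markers of macrophages, progenitors and endothelium, found in IIb fibre nuclei, it took 15.5% of their UMIs in AHRfl/fl and 27.7% in AHRmKO. These are rough estimates, since the choice of nuclei capped Pdgfra and Ptprc. Read from barcodes of at most 100 UMIs, the shares were 15.5% and 20.5%. Camk1d stood at 459 CPM in the nuclei and 4093 CPM in free RNA in AHRfl/fl, and at 4919 and 31593 CPM in AHRmKO. Those levels allow smaller shares than 15.5% and 27.7%, so both may be too high. Some abundant transcripts stood higher in the free RNA of AHRfl/fl. Actc1, cardiac actin, stood at 1699 CPM in that free RNA and at 89.8 CPM in that of AHRmKO. Rps29, a ribosomal protein gene, stood at 3409 and 286 CPM. Myh3 was at 2912 and 427 CPM in free RNA, and 79.5% of AHRfl/fl barcodes with 3 or more Ptprc UMIs and under 1% fibre genes held a Myh3 UMI (median depth 3355). In the IIb fibre nuclei, whose Myh3 the rule capped, the share was 84.3% at a median depth of 4743, and 61.3% after thinning to 2000 UMIs. Within AHRfl/fl, Myh3 stood at 291, 280, 550 and 624 CPM in nuclei with Ncam1 under 0.05%, up to 0.15%, up to 0.35% and above of their UMIs, so it was higher in the upper 2 ranges. The part of free RNA in the Myh3 of these nuclei was not tested.

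Ncam1 divided the nuclei chosen as adult IIb. It took a median of 0.234% of the UMIs of a nucleus in AHRfl/fl and 0.0208% in AHRmKO. In fibre nuclei above the Myh3 limit the medians were 0.543% and 0.408%. Summed over IIb fibre nuclei, Ncam1 stood at 3012 CPM in AHRfl/fl and 543 CPM in AHRmKO. Free RNA had the opposite order, at 823 and 1536 CPM, and its part in the Ncam1 of these nuclei was not tested. Ncam1 was under 0.1% in 129 of 331 nuclei of AHRfl/fl (39.0%) and in 279 of 302 of AHRmKO (92.4%). The other 202 nuclei of AHRfl/fl held 56 with Ncam1 below 0.3% and 146 at 0.3% or more, and the other 23 of AHRmKO held 12 and 11. On Ncam1, the label of an adult fibre nucleus therefore fits more of the nuclei of AHRmKO than of AHRfl/fl. Among Ptprc-bearing barcodes without fibre genes, 7.95% reached 0.1% Ncam1 in AHRfl/fl and 2.74% in AHRmKO. The limit of 0.1% was chosen after the values had been seen. Just under it, from 0.05%, lay 24 and 33 nuclei, and just over it, to 0.15%, 9 and 5. The library comparison of each gene list named below, and of most single genes, is given for all IIb fibre nuclei and again for those with Ncam1 under 0.1%, called Ncam1-low.

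**Figure D1:**
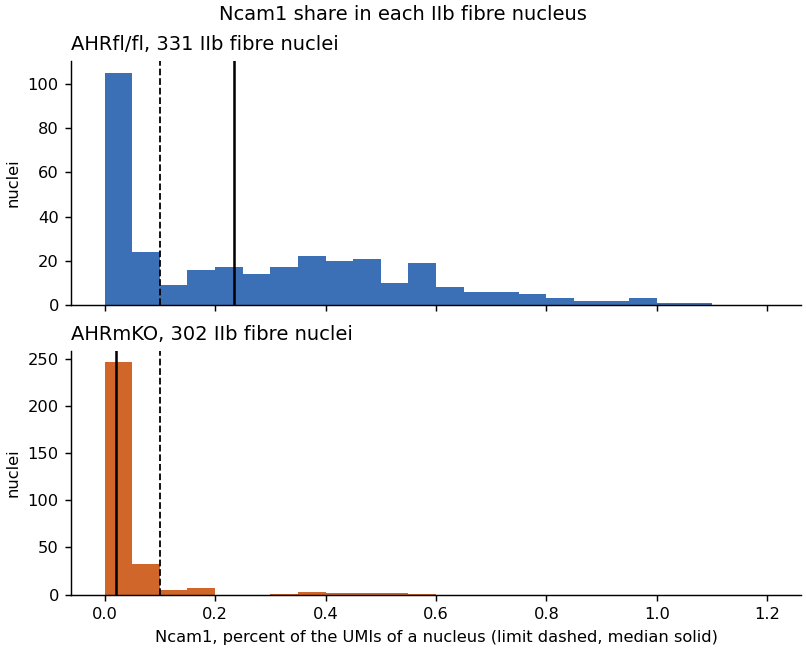
Number of IIb fibre nuclei (y axis) by the percent of their UMIs from Ncam1 (x axis), AHRfl/fl above and AHRmKO below. The dashed line is the limit of 0.1% and the solid line the median, 0.234% in AHRfl/fl and 0.0208% in AHRmKO, and AHRfl/fl has a second group of nuclei above the limit that is nearly absent in AHRmKO.

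Within AHRfl/fl, the atrophy ligases and Ncam1 took opposite ends of the range. Trim63 was at 3837 CPM in the 105 nuclei with Ncam1 under 0.05%, 1823 CPM in the 33 up to 0.15%, 584 CPM in the 64 up to 0.35%, and 176 CPM in the 129 above that. Fbxo32 was at 3140, 1542, 384 and 69.8 CPM in the same order. Both ligases were lower in each higher range of Ncam1. Mylk4, a myosin light chain kinase family member of fast fibres, was at 1954, 752, 242 and 250 CPM. Trp63, a p53 family transcription factor, was at 2048, 1147, 336 and 177 CPM. Musk, the receptor kinase that organises the nerve contact, was at 868, 478, 424 and 419 CPM. Some genes of immature fibres were higher in the upper ranges and others were not. Myog, myogenin, was at 121, 82.9, 145 and 125 CPM, and Actc1 at 230, 249, 248 and 283 CPM, with no clear order. Myh8, the neonatal myosin, was at 61.6, 82.9, 393 and 588 CPM. Runx1, a transcription factor of regenerating and denervated fibres, was at 665, 809, 1996 and 2831 CPM. Ppargc1a, the coactivator PGC-1 alpha of the oxidative programme, was at 121, 300, 364 and 369 CPM.

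AHRmKO had 246, 38, 8 and 10 nuclei in these ranges, so its upper ranges rest on few nuclei. Its Trim63 was at 2150, 3812, 907 and 379 CPM, with its highest level in the second range. Single nuclei held 61, 53, 50 and 47 of the 520 Trim63 UMIs of that range, so its level leans on few of the 38. Fbxo32 of AHRmKO was at 1610, 1899, 101 and 75.7 CPM. Its Mylk4 was at 6268, 3475, 1075 and 364 CPM, above the AHRfl/fl value in each range. In the highest range 16 of the 24 Mylk4 UMIs came from 1 nucleus of 20322 UMIs, so the order there rests on it. That nucleus and another of 19816 UMIs held most of the 66020 UMIs of the range. They therefore weigh on every AHRmKO level given for it. Musk did not follow the order seen in AHRfl/fl, at 101, 477, 134 and 530 CPM. Trp63 was at 402, 799, 168 and 212 CPM, and Myh8 at 14.5, 14.7, 571 and 697 CPM. Runx1 was at 597, 1063, 3896 and 2272 CPM, and Ppargc1a at 220, 183, 101 and 394 CPM. Across nuclei, Trim63 and Fbxo32 shares went together with a Spearman correlation of 0.767 in AHRfl/fl (n = 331) and 0.338 in AHRmKO (n = 302). Trim63 and Ncam1 had one of -0.711 in AHRfl/fl and 0.0857 in AHRmKO. Among nuclei with Ncam1 under 0.1% (n = 129 and 279) the values were 0.610 and 0.324 for Trim63 with Fbxo32, and -0.200 and 0.191 for Trim63 with Ncam1. These nuclei share a library and their counts are sparse, so the correlations are descriptions.

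**Figure D2:**
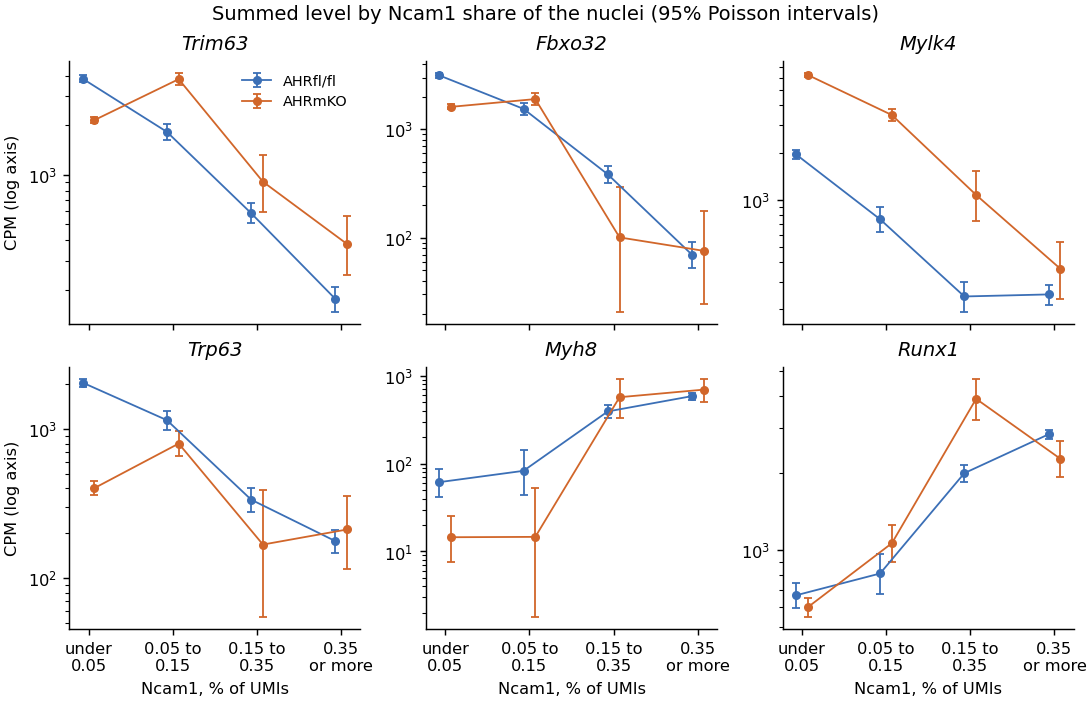
Summed level in CPM on a log axis (y) of 6 genes in IIb fibre nuclei split by the percent of UMIs from Ncam1 (x), AHRfl/fl in blue and AHRmKO in orange, with 95% Poisson intervals. Trim63, Fbxo32, Mylk4 and Trp63 are lower in the upper Ncam1 ranges, and Myh8 and Runx1 are higher there.

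Between the libraries, more genes were lower than higher in AHRmKO when all IIb fibre nuclei were summed. Of 8901 genes with 30 or more UMIs over both libraries, 714 (8.02%) were at least 2-fold higher in AHRmKO and 1930 (21.7%) at least 2-fold lower. The median log2 ratio, AHRmKO over AHRfl/fl with 0.5 CPM added to each, was -0.18. In nuclei with Ncam1 under 0.1% the split was nearly even: of 6262 genes, 688 (11.0%) were higher and 808 (12.9%) lower, with a median of 0.02. The percentages given for each gene list below are to be read against these 4 shares. All nuclei summed to 1740895 UMIs in AHRfl/fl and 1058175 in AHRmKO, and the Ncam1-low ones to 597642 and 942649. The minimum of 30 UMIs thus more easily admits genes high in AHRfl/fl over all nuclei, and genes high in AHRmKO in the Ncam1-low ones. The part of this in the change of the split was not tested. Of the genes measured both ways, 394 were called higher in both, 62.7% of those called higher in all nuclei and 57.3% of those in the Ncam1-low ones. For lower calls, 595 were shared, 67.8% and 73.6%. Of the genes called lower over all nuclei, 86 had a ratio above 0 in the Ncam1-low nuclei. Gm42418, a gene model that overlaps ribosomal RNA sequence, stood at 2585 CPM in AHRfl/fl and 24898 CPM in AHRmKO nuclei, and at 15544 and 118905 CPM in free RNA. Free RNA, mitochondrial share and depth also differed between the libraries as given above, and their part in these counts was not tested.

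Fast contractile genes were split. Of 36 measured, 13 were at least 2-fold higher in AHRmKO, 8 at least 2-fold lower and 15 between (36.1% and 22.2%), with a median of 0.48. The Ncam1-low nuclei gave 10 higher and 7 lower of 36 (27.8% and 19.4%), with a median of 0.50. Mylk4 stood at 770 CPM (730 to 813) in AHRfl/fl and at 5393 CPM (5254 to 5535) in AHRmKO. Its log2 ratio was 2.81 (2.72 to 2.90) over all nuclei and 1.75 (1.65 to 1.84) in the Ncam1-low ones. The intervals of its level do not overlap in either set. Mylk2, the skeletal muscle myosin light chain kinase, stood at 97.7 CPM (83.5 to 114) and 1256 CPM (1189 to 1325). Its ratio was 3.68 over all and 2.87 in the Ncam1-low nuclei. Mybpc2, the fast myosin binding protein C, stood at 26.4 and 248 CPM, with ratios of 3.20 and 2.18. Actn3, the Z-disc alpha-actinin of fast fibres, stood at 223 and 1028 CPM, with ratios of 2.20 and 1.61. These 4 fast fibre genes were higher in AHRmKO in both sets.

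The giant protein titin and the IIb myosin followed the same direction, though the choice of nuclei used their counts. Ttn stood at 18621 CPM in AHRfl/fl and 66136 CPM in AHRmKO, a ratio of 1.83 over all and 1.64 in the Ncam1-low nuclei. Myh4 stood at 2178 and 5258 CPM, with ratios of 1.27 and 0.90. Malat1, an abundant nuclear RNA, had the opposite order, at 105270 and 55097 CPM. Among the contractile genes that were lower in AHRmKO were some that were abundant in free RNA. Mylpf, the fast myosin regulatory light chain, stood at 733 and 121 CPM, with ratios of -2.59 and -2.66. In free RNA Mylpf was at 2625 CPM in AHRfl/fl and 134 CPM in AHRmKO, and the part of free RNA in its ratio was not tested. Acta1, skeletal actin, stood at 886 and 289 CPM in the nuclei, and at 3825 and 424 CPM in free RNA. Myom3, an M-band protein, stood at 426 and 77.5 CPM, with free RNA at 61.5 and 71.7 CPM.

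Genes of slow, IIa and IIx fibres were lower in AHRmKO in most cases. Of 9 measured, none was 2-fold higher and 6 were 2-fold lower (66.7%), with a median of -1.94. Among Ncam1-low nuclei 5 were lower (55.6%) and 1 higher, with a median of -1.31. The choice of nuclei limited Myh1 and Myh2, the IIx and IIa myosins, so their levels show nothing here. Casq2, the slow calsequestrin, had the lowest ratio of the list, -3.30 (-3.86 to -2.82), from 320 CPM in AHRfl/fl and 32.1 CPM in AHRmKO. Among Ncam1-low nuclei Casq2 was at 40.2 and 11.7 CPM, a ratio of -1.74 (-2.96 to -0.70). Free RNA held 218 and 87.5 CPM of Casq2, above both Ncam1-low levels, and the part of free RNA in its ratios was not tested. Tnni1, slow troponin I, stood at 188 and 28.4 CPM, with ratios of -2.71 and -2.01, and free RNA held 353 and 59.5 CPM of it. Myh7, the slow myosin, which the choice of nuclei limits, had no UMI in either library, which allows a level of up to 3 UMIs, 1.72 CPM in AHRfl/fl and 2.84 CPM in AHRmKO.

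Of 23 genes of calcium handling, 2 were 2-fold higher in AHRmKO (8.70%) and 4 lower (17.4%), with a median of 0.16. The Ncam1-low counts were 1 and 2 of 22 (4.55% and 9.09%). All of these shares lie near or under those of all genes. Atp2a1, the calcium pump of the fast sarcoplasmic reticulum, stood at 1806 CPM in AHRfl/fl and 4406 CPM in AHRmKO, with ratios of 1.29 and 0.93 in the Ncam1-low nuclei. Pvalb, parvalbumin, the calcium buffer of IIb fibres, stood at 113 CPM (97.4 to 130) and 277 CPM (246 to 310), a ratio of 1.29. Among Ncam1-low nuclei Pvalb stood at 286 and 309 CPM, and the ratio of 0.11 (-0.17 to 0.39) did not differ from 0 beyond counting error. Of 26 measured transcription regulators of fibre type, 2 were higher (7.69%) and 4 lower (15.4%), and 1 and 4 of 24 in the Ncam1-low nuclei (4.17% and 16.7%), again near the shares of all genes. Maf, a large MAF factor of the IIb fibre, had a ratio of 0.68 over all and 0.60 in the Ncam1-low nuclei. Eya4, a transcription cofactor of fast fibres, had ratios of -0.38 and -0.65. Nfatc1, a calcineurin target, had ratios of 1.14 and 0.78. Myf6, the MRF4 factor of mature fibres, stood at 172 CPM in AHRfl/fl and 50.1 CPM in AHRmKO. In the Ncam1-low nuclei Myf6 was at 398 and 52.0 CPM, and its ratio of -1.77 over all became -2.93 (-3.41 to -2.49).

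The ubiquitin ligases of atrophy turned with the make-up of the nuclei. Trim63 stood at 1431 CPM (1376 to 1489) in AHRfl/fl and at 2219 CPM (2130 to 2311) in AHRmKO over all nuclei, a ratio of 0.63 (0.55 to 0.71). In the Ncam1-low nuclei it stood at 3521 and 2377 CPM, a ratio of -0.57 (-0.65 to -0.48). Fbxo32 stood at 1125 CPM (1076 to 1176) and 1509 CPM (1436 to 1585), a ratio of 0.42 (0.33 to 0.52). Its level in the Ncam1-low nuclei was 2890 and 1655 CPM, a ratio of -0.80 (-0.90 to -0.70). Both ligases were thus higher in AHRmKO over all nuclei and higher in AHRfl/fl among the Ncam1-low nuclei, and neither difference reached 2-fold. In fibre nuclei above the Myh3 limit, Trim63 was at 172 CPM in AHRfl/fl and 190 CPM in AHRmKO, and Fbxo32 at 60.0 and 27.2 CPM. Their levels in free RNA lay between 59.6 and 102 CPM.

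Across the atrophy list, 5 of 29 genes were 2-fold higher in AHRmKO and 5 lower over all nuclei (17.2% each), with a median of 0.32. In the Ncam1-low nuclei 0 of 28 were higher and 5 lower (17.9%, near the 12.9% of all genes), with a median of -0.38. Foxo1, a FOXO factor, stood at 448 and 1056 CPM over all nuclei and at 1079 and 1164 CPM in the Ncam1-low ones, so that its ratio went from 1.24 to 0.11. Klf15, a glucocorticoid-responsive factor, had a ratio of 1.65 over all and 0.85 (-0.01 to 1.82) in the Ncam1-low nuclei. Mt1, a metallothionein, stood at 181 and 30.2 CPM, with ratios of -2.56 and -3.49, and at 304 and 27.7 CPM in free RNA. Of 23 autophagy and lysosome genes, none was 2-fold higher in AHRmKO and 4 were lower, 17.4% against 21.7% of all genes. The Ncam1-low counts were 1 and 4 of 22 (4.55% and 18.2%). The lowest of them, Ctsl, a lysosomal protease, stood at 241 and 35.0 CPM, and free RNA held 1466 and 89.9 CPM of it.

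Most genes of denervation and of immature nuclei were at least 2-fold lower in AHRmKO over all nuclei. Of 18 denervation genes, 12 were 2-fold lower and 2 higher (66.7% and 11.1%), with a median of -1.42. Of 16 immature myonucleus genes, 15 were lower (93.8%) and none higher, with a median of -2.27. The 7 immature myonucleus markers summed to 4644 and 841 CPM, with 7983 and 2478 CPM in free RNA. Of the 7, 6 in AHRfl/fl and 7 in AHRmKO lay below their free RNA level. The 7 include Myh3, whose level the choice of nuclei capped, so Myh3 shows nothing here. Ncam1 held 3012 and 543 CPM of the sums, against 823 and 1536 CPM in free RNA. The part of free RNA in these counts was not tested. In the Ncam1-low nuclei, chosen on a gene of both lists, 7 of 16 (43.8%) and 9 of 14 (64.3%) were lower, with medians of -0.83 and -1.69. Myh8 stood at 356 CPM (328 to 385) in AHRfl/fl and 72.8 CPM (57.4 to 91.0) in AHRmKO, with ratios of -2.28 and -2.17, and free RNA held 686 and 85.4 CPM. Runx1 stood at 1874 and 854 CPM, and its ratio of -1.13 became -0.07 (-0.26 to 0.11) in the Ncam1-low nuclei. Free RNA held 844 and 2941 CPM of Runx1. With free RNA also subtracted in the Ncam1-low nuclei, the ratio of Runx1 was -10.32, so it depends on that step. Musk stood at 551 and 177 CPM over all nuclei and at 793 and 151 CPM in the Ncam1-low ones, with ratios of -1.64 and -2.39. Over the alternative settings its ratio lay between -2.56 and -0.98, the latter with at least 4000 UMIs and under 2-fold. Free RNA held 78.1 and 104 CPM of Musk, below the nuclei of either library. Chrna1, the acetylcholine receptor alpha subunit, had a ratio of -2.47, with 1002 CPM in the free RNA of AHRfl/fl against 232 CPM in the nuclei. The direction of Chrna1 is not settled, since its ratio was 3.10 with Ncam1 under 0.1% and free RNA subtracted. Ky and Scn4a, a muscle peptidase-like protein and the adult sodium channel, were the 2 denervation list genes higher in AHRmKO, with ratios of 1.59 and 1.77.

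Of 14 measured stress genes of the p53 family, 1 was 2-fold higher in AHRmKO and 3 lower (21.4%, against 21.7% of all genes), with a median of -0.11. Of 12 measured in the Ncam1-low nuclei, none was higher and 4 were lower (33.3%, against 12.9%), with a median of -0.42. Trp63 stood at 820 CPM (778 to 864) in AHRfl/fl and 435 CPM (396 to 476) in AHRmKO over all nuclei, a ratio of -0.92. Among Ncam1-low nuclei it stood at 1914 and 466 CPM, a ratio of -2.04 (-2.20 to -1.88), and free RNA held 18.3 and 24.7 CPM. Eda2r, the ectodysplasin A2 receptor, a p53 family target linked to muscle wasting, stood at 215 and 55.8 CPM, with ratios of -1.94 and -2.91. Cdkn1a, the cell cycle inhibitor p21, stood at 97.7 and 25.5 CPM, below the 407 and 53.5 CPM of free RNA. The ratio of Cdkn1a was -1.92 over all and -1.73 in the Ncam1-low nuclei. It depended on free RNA, at -6.14 with that of barcodes of at most 100 UMIs subtracted. With Ncam1 under 0.1% and the free RNA of 200 to under 500 UMIs subtracted, it was -0.13. Phlda3, another p53 target, had ratios of 0.79 and -0.31.

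**Figure D3:**
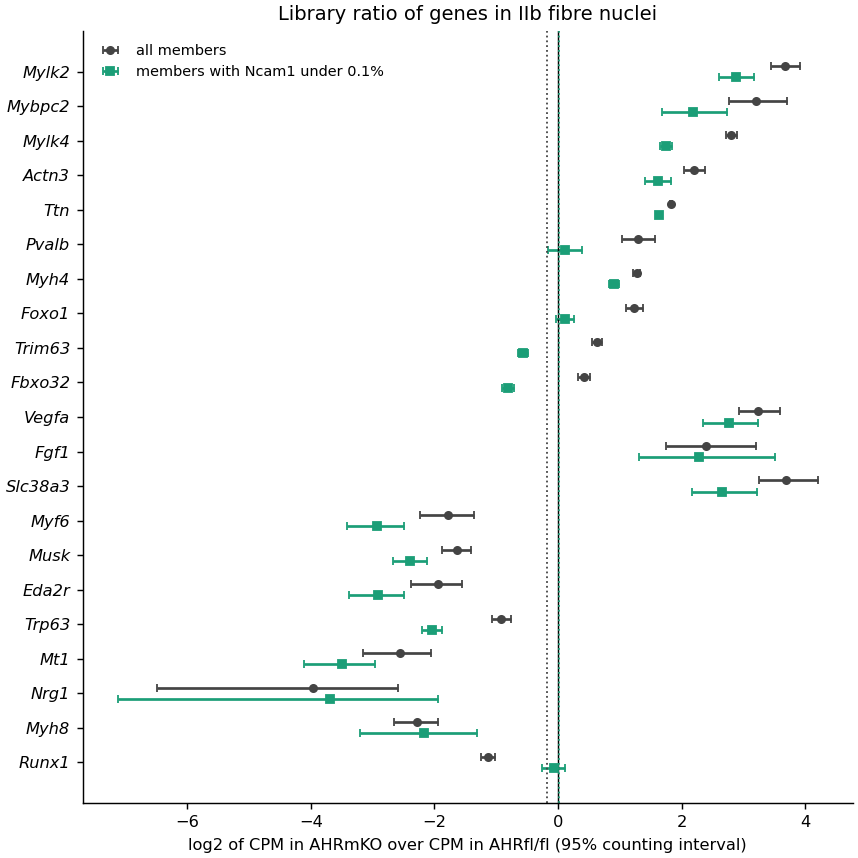
Log2 ratio of AHRmKO over AHRfl/fl (x axis) for 21 genes in all IIb fibre nuclei (dark circles) and in those with Ncam1 under 0.1% (green squares), with 95% counting intervals; dotted lines are the medians of all genes, -0.18 and 0.02. Trim63 and Fbxo32 lie on opposite sides of 0 in the 2 sets, and Mylk4, Mylk2, Actn3 and Vegfa lie above 0 in both.

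Vegfa, the main angiogenic ligand, stood at 51.7 CPM (41.6 to 63.5) in AHRfl/fl and 493 CPM (452 to 538) in AHRmKO, a ratio of 3.24 (2.93 to 3.59). In the Ncam1-low nuclei it stood at 78.6 and 538 CPM, a ratio of 2.77. A Vegfa UMI was found in 70 of 331 nuclei (21.1%) and in 215 of 302 (71.2%). After each nucleus was thinned to 2000 UMIs the shares were 9.67% and 56.6%, and in Ptprc-bearing barcodes they were 4.21% and 5.02%. Vegfa was not particular to IIb nuclei: fibre nuclei with more Myh1 and Myh2 than Myh4 held 28.2 CPM of it in AHRfl/fl and 1148 CPM in AHRmKO. Fgf1, a fibroblast growth factor, stood at 12.6 and 69.0 CPM, with ratios of 2.40 and 2.29. Nrg1, neuregulin 1, stood at 51.7 and 2.83 CPM, from 90 and 3 UMIs, a ratio of -3.97 (-6.49 to -2.60). Of 17 angiogenic and growth factor ligands, 2 were 2-fold higher and 5 lower (11.8% and 29.4%), near the shares of all genes, and 2 and 1 of 8 in the Ncam1-low nuclei. Of 17 hypoxia genes, 5 were higher and 1 lower (29.4% and 5.88%), and 3 and 0 of 14 in the Ncam1-low nuclei (21.4% higher). Epas1, the hypoxia factor HIF-2 alpha, had a ratio of 2.72 on 11 and 47 UMIs, and 2.04 in the Ncam1-low nuclei.

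In the glycolysis and amino acid lists more genes were higher in AHRmKO than lower. Of 37 glycolysis and glycogen genes, 11 were 2-fold higher and 4 lower (29.7% and 10.8%), with a median of 0.62. The Ncam1-low counts were 10 and 3 of 33 (30.3% and 9.09%), with a median of 0.24. Pygm, muscle glycogen phosphorylase, stood at 385 and 1468 CPM, with ratios of 1.93 and 1.70. Slc16a3, the lactate exporter MCT4, had 33 and 130 UMIs, with ratios of 2.66 and 2.48. Of 24 amino acid and polyamine genes, 9 were higher and 3 lower (37.5% and 12.5%), with a median of 0.58, and 8 and 3 of 24 in the Ncam1-low nuclei (33.3% and 12.5%). Slc38a3, the glutamine carrier SNAT3, stood at 25.3 CPM (18.4 to 33.9) and 332 CPM (298 to 368), with ratios of 3.69 and 2.66. Slc7a2, the cationic amino acid carrier CAT2, had ratios of 2.69 and 2.22. Ckmt2, mitochondrial creatine kinase, had 198 and 201 UMIs over all nuclei but 5 and 191 in the Ncam1-low ones, so its ratio went from 0.74 to 4.52 (3.35 to 6.24).

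The oxidative list gave 3 genes 2-fold higher and 5 lower of 34 (8.82% and 14.7%, against 8.02% and 21.7% of all genes), with a median of 0.08. Its Ncam1-low counts were 7 higher and 3 lower of 29 (24.1% and 10.3%, against 11.0% and 12.9%), with a median of 0.31. Ppargc1a stood at 292 and 223 CPM over all nuclei and at 144 and 220 CPM in the Ncam1-low ones, so its ratio turned from -0.39 to 0.61. Acacb, the acetyl-CoA carboxylase that restrains fat oxidation, had ratios of 1.77 and 0.94. Of 25 insulin and IGF genes, 5 were higher and 5 lower, 20.0% each against 8.02% and 21.7% of all genes, and 3 and 2 of 23 in the Ncam1-low nuclei. Pik3r1, the PI3 kinase regulatory subunit, stood at 180 and 693 CPM, with ratios of 1.94 and 1.04. Of 16 membrane channel and pump genes, 6 were higher and 2 lower (37.5% and 12.5%), and 4 and 3 of 14 in the Ncam1-low nuclei (28.6% and 21.4%). Clcn1, the muscle chloride channel, stood at 70.1 and 283 CPM, with ratios of 2.00 and 1.45.

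Of the 16 measured circadian clock genes, 6 were 2-fold higher in AHRmKO and 1 lower (37.5% and 6.25%), with the highest median of the 25 lists, 0.78. Among Ncam1-low nuclei 3 were higher and 1 lower (18.8% and 6.25%), with a median of 0.54. Npas2, a partner of BMAL1, stood at 24.7 and 5.67 CPM, with ratios of -2.03 and -2.79. The hour of sampling is not given. Of 13 early response genes, 4 were higher (30.8%) and none lower, and 3 and 1 of 12 in the Ncam1-low nuclei. Fos stood at 8.62 and 105 CPM, from 15 and 111 UMIs, with ratios of 3.53 and 2.85. Free RNA held 33.6 and 158 CPM of Fos, and Ptprc-bearing barcodes 25.2 and 283 CPM, so Fos was higher in AHRmKO outside IIb nuclei as well. Egr1 stood at 16.1 and 133 CPM, with 59.9 and 97.7 CPM in free RNA.

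Dystrophin complex and repair genes gave 10 of 27 lower and 1 higher (37.0% and 3.70%), with a median of -0.57. Their Ncam1-low counts, 4 lower and 3 higher of 25, were near the shares of all genes. Utrn, utrophin, the dystrophin homologue of immature fibres, stood at 613 and 222 CPM over all nuclei and at 134 and 155 CPM in the Ncam1-low ones. Of 17 unfolded protein and heat shock genes, 7 were lower and 1 higher (41.2% and 5.88%), and 7 of 15 were lower in the Ncam1-low nuclei (46.7%). Cryab and Hspb1 had the lowest ratios of this list, from 104 and 18.9 CPM and from 54.0 and 12.3 CPM. Free RNA held 389 and 16.1 CPM of Cryab and 244 and 8.27 CPM of Hspb1. The part of free RNA in the counts of this list was not tested. Of 17 NRF2 genes, none was higher and 3 were lower, 17.6% against 21.7% of all genes. Among Ncam1-low nuclei 5 of 16 NRF2 genes were lower, 31.2% against 12.9%, and none higher, with a median of -0.38. Of 18 myostatin and TGF-beta genes, 3 were higher and 1 lower (16.7% and 5.56%), and 2 and 1 of 17 in the Ncam1-low nuclei (11.8% and 5.88%). Smad7, an inhibitor of the pathway, stood at 9.77 and 45.4 CPM.

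**Figure D4:**
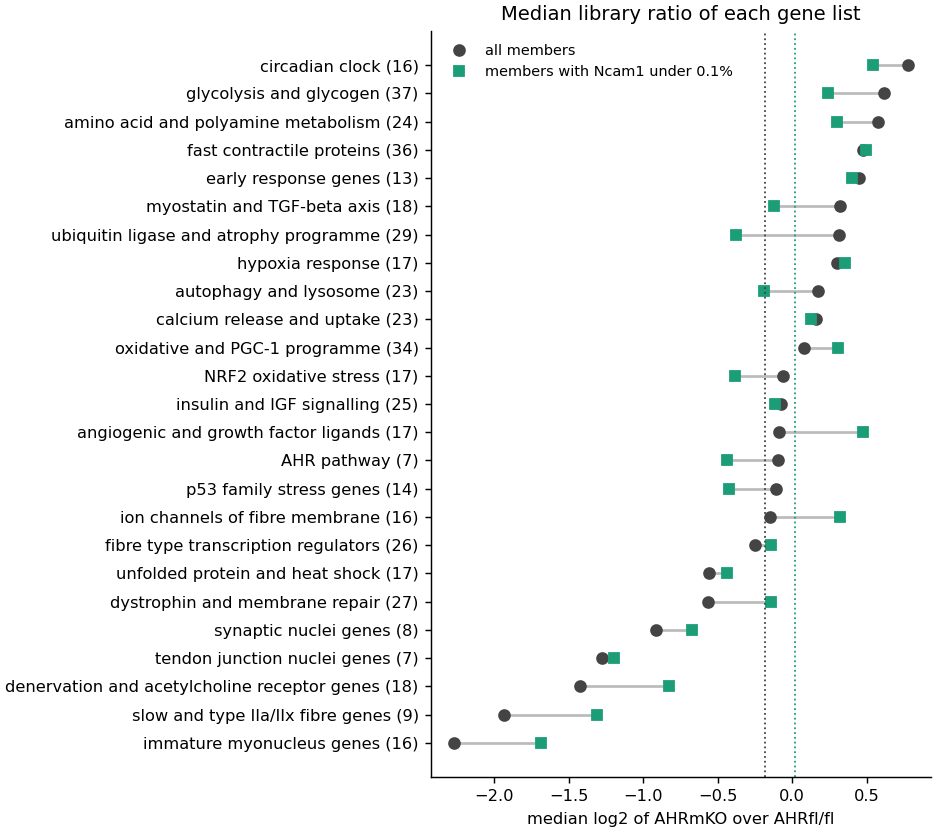
Median log2 ratio of AHRmKO over AHRfl/fl (x axis) for 25 gene lists (number of genes measured in brackets) in all IIb fibre nuclei (dark circles) and in those with Ncam1 under 0.1% (green squares); dotted lines are the medians of all genes, -0.18 and 0.02. The circadian clock list has the highest median, 0.78, the immature myonucleus list the lowest, -2.27, and the atrophy list moves from 0.32 to -0.38.

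Ahr itself was scarce in IIb fibre nuclei. It had 22 UMIs in AHRfl/fl, 12.6 CPM (7.92 to 19.1), and 8 UMIs in AHRmKO, 7.56 CPM (3.26 to 14.9). The ratio of -0.70 had an interval from -2.12 to 0.48, so no difference was detectable at this depth. None of the 22 AHRfl/fl UMIs lay in a nucleus with Ncam1 under 0.1%, against 6 of the 8 in AHRmKO. Such nuclei held 597642 of all 1740895 UMIs in AHRfl/fl and 942649 of all 1058175 in AHRmKO. Free RNA held 18.5 and 20.1 CPM of Ahr, above the nuclei of both libraries. A UMI was found in 6.34% and 2.65% of the nuclei, and in 1.51% and 0.993% after thinning to 2000 UMIs. Ptprc-bearing barcodes held one in 11.5% and 14.3% of cases, but leukocytes can express Ahr and so do not measure its background. Fibre nuclei above the Myh3 limit held 36.0 and 32.7 CPM of Ahr, above the level of free RNA. The labels do not give the deleted stretch, and a count from the 3′ end of a transcript checks no deletion elsewhere in it. Arnt, the DNA-binding partner of AHR, stood at 183 and 167 CPM, with ratios of -0.13 and -0.52. Of 7 measured genes of the AHR pathway, Lpcat2, a lysophospholipid acyltransferase, was the 1 called higher, with a ratio of 1.43 on 19 and 32 UMIs. It lay below its 91.2 and 90.2 CPM in free RNA, and its ratio was -0.85 with at least 4000 UMIs and -1.10 with mitochondrial genes at most 1%. Hsp90ab1, a chaperone of the receptor, was the 1 called lower, from 237 and 86.9 CPM. Free RNA held 1600 and 175 CPM of Hsp90ab1, and the part of free RNA in its ratio was not tested. The Ncam1-low nuclei gave 1 higher and 1 lower of 6. Cyp1a1, the usual target of AHR, had no UMI in either set.

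Among all named genes at 50 CPM or more in 1 library, the 12 highest ratios lay between 3.37 and 5.70. Prima1, the membrane anchor of acetylcholinesterase, had 2 UMIs in AHRfl/fl and 90 in AHRmKO, at 1.15 and 85.0 CPM, a ratio of 5.70 (4.32 to 9.28). A UMI of it was found in 0.604% and 19.2% of the nuclei, against 0.104% and 0.201% of Ptprc-bearing barcodes. Slc15a5, a peptide carrier family member, had a ratio of 5.07 on 4 and 99 UMIs. Kcnn2, a calcium-activated potassium channel, had a ratio of 4.27 on 12 and 150 UMIs. Klhl33, Spns2, Rpl3l, Slc38a3, Mylk2, Fos, Map2k6, Camk1d and Tshr made up the rest of the 12 highest, with ratios of 4.10 or less. Rpl3l, the ribosomal protein of mature striated muscle, stood at 13.8 and 188 CPM. Camk1d stood at 4093 and 31593 CPM in free RNA, far above the 459 and 4919 CPM of the nuclei. Tshr rested on few nuclei: 67 of its 68 UMIs in AHRmKO came from 1 nucleus, and its ratio was -3.87 with mitochondrial genes at most 1%.

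The 12 lowest ratios, between -5.21 and -3.51, held several genes abundant in free RNA. Bex1, a brain-expressed X-linked protein of regenerating muscle, had 92 UMIs in AHRfl/fl and 1 in AHRmKO, a ratio of -5.21 (-11.1 to -3.29), and 178 and 6.58 CPM in free RNA. Ptprq, a receptor phosphatase, had 118 and 3 UMIs, a ratio of -4.36 (-6.88 to -3.00), with 4.07 and 7.31 CPM in free RNA. Its UMIs in AHRfl/fl were spread over 71 nuclei. Ptprq was at 139 and 3.18 CPM in the Ncam1-low nuclei. Capn6, a calpain-like protein of immature muscle, had 96 and 2 UMIs, and Sidt1 96 and 4. Capn6 stood at 55.1 and 1.89 CPM, and free RNA held 146 and 40.8 CPM of it. Capn6, Actc1, Rpl36a, Rps28, Rps29, Cd63, Ppia and Emp3 each had a higher CPM in AHRfl/fl free RNA than in that library's IIb nuclei. The part of free RNA in their ratios was not tested. Nrg1, given above, completes the 12.

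IIb nuclei also differed from other fibre nuclei of the same library. Beside the fibre nuclei with more Myh1 and Myh2 than Myh4 (233 in AHRfl/fl, 216 in AHRmKO), 104 of 10878 genes (0.956%) were 2-fold higher in IIb nuclei in both libraries and 83 (0.763%) lower in both. The same nuclei and counts defined the classes, so these are descriptions. Pvalb was at 113 and 19.6 CPM in IIb and Myh1 or Myh2 nuclei of AHRfl/fl, and at 277 and 77.2 CPM in those of AHRmKO. Mybpc2 was at 26.4 and 7.83 CPM in AHRfl/fl and at 248 and 73.8 CPM in AHRmKO. Both genes were higher in IIb nuclei in each library. Igfn1, a Z-disc-associated protein, was at 89.6 and 39.2 CPM in AHRfl/fl and at 247 and 8.07 CPM in AHRmKO. Npr3, the natriuretic peptide clearance receptor, was at 67.2 and 7.83 CPM in AHRfl/fl and at 64.3 and 16.1 CPM in AHRmKO. Mylk4 separated the classes less in AHRmKO, at 5393 CPM in IIb and 3103 CPM in Myh1 or Myh2 nuclei. Fbxo32 was at 1125 and 208 CPM in AHRfl/fl and at 1509 and 821 CPM in AHRmKO. The classes differed in their Ncam1 make-up: it was under 0.1% in 18 of the 233 Myh1 or Myh2 nuclei of AHRfl/fl and in 186 of the 216 of AHRmKO. Among Ncam1-low nuclei of AHRfl/fl, Fbxo32 was at 2890 CPM in IIb and 2718 CPM in Myh1 or Myh2 nuclei, and Trim63 at 3521 and 3645 CPM, so neither ligase set the classes apart there. In AHRmKO the same comparison gave 1655 and 1057 CPM for Fbxo32 and 2377 and 1252 CPM for Trim63. The log2 ratio of Npr3 in AHRfl/fl went from 3.02 to 0.71 in Ncam1-low nuclei, and that of Pvalb from 2.49 to 1.34.

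**Figure D5:**
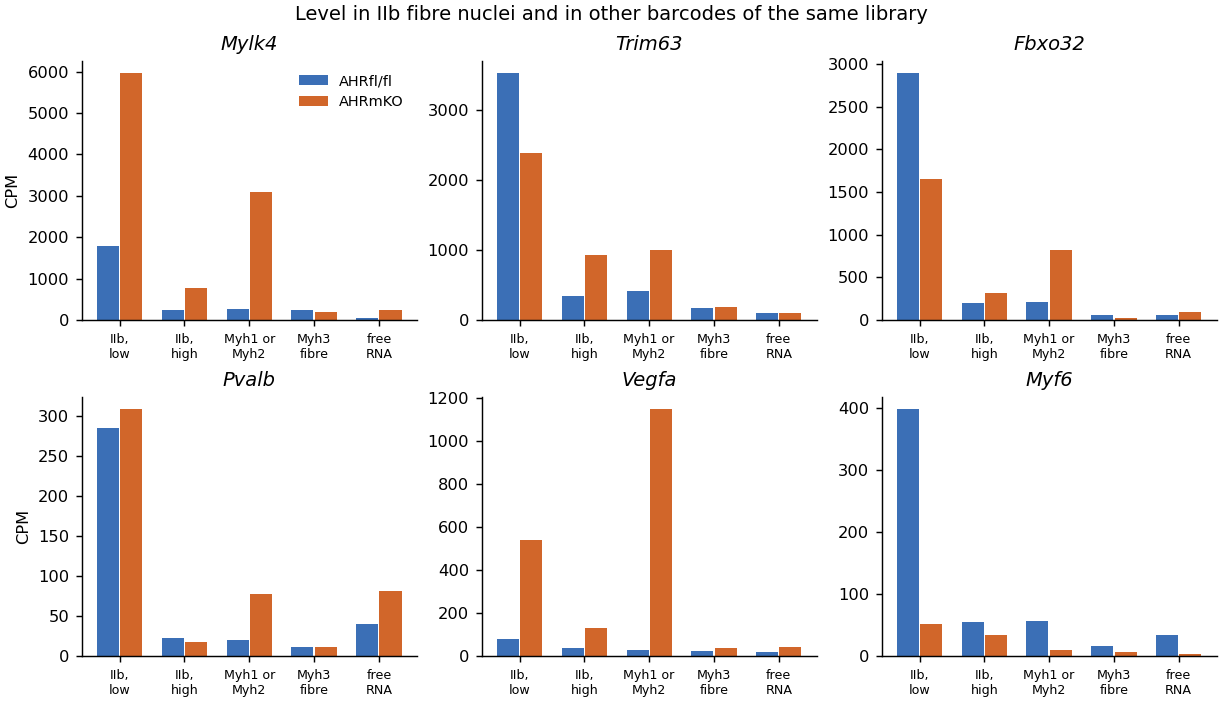
Level in CPM (y axis) of 6 genes in IIb fibre nuclei with Ncam1 under 0.1% (low) and at 0.1% or more (high), in Myh1 or Myh2 fibre nuclei, in Myh3 fibre nuclei and in free RNA, AHRfl/fl in blue and AHRmKO in orange; the bars are summed levels and carry no error bar. Myh1 or Myh2 nuclei are not split by Ncam1, and 18 of 233 are low in AHRfl/fl. Among the bars drawn, Trim63, Fbxo32 and Myf6 are highest in Ncam1-low IIb nuclei of AHRfl/fl, although the 18 low Myh1 or Myh2 nuclei hold 3645 CPM of Trim63 and 451 CPM of Myf6.

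Markers of nuclei at the nerve contact and the tendon junction were found at very different frequencies. Chrne, the adult acetylcholine receptor subunit of the nerve contact, had a UMI in 5 of 331 nuclei of AHRfl/fl and 3 of 302 of AHRmKO. Col22a1, the collagen of the tendon junction, had a UMI in 3 and 4 nuclei, and 2 or more UMIs in 0 and 4. Musk, of the same nerve contact list, had a UMI in 71.0% and 22.2% of the nuclei and Colq, the anchor of acetylcholinesterase there, in 9.37% and 2.32%. Adamts20, of the tendon junction list, had one in 12.7% and 3.31%. Sparse counts of these genes do not give the share of such nuclei. Between the libraries, 4 of 8 measured nerve contact genes were lower in AHRmKO and none higher, and 2 and 1 of 7 in the Ncam1-low nuclei. Of 7 tendon junction genes 5 were lower (71.4%) and none higher, and 2 and 0 of 4 in the Ncam1-low nuclei. After thinning to 2000 UMIs, the variance of a gene over its mean across nuclei had a median of 1.12 in AHRfl/fl and 1.16 in AHRmKO. This measure can rise with abundance, and Ttn, which the choice of nuclei used, had means of 38.0 and 147 UMIs after thinning. The variance over mean of Ttn was 6.45 and 29.2, the highest in AHRmKO. Malat1 led AHRfl/fl with 59.9. Dlc1, a GTPase-activating protein, followed there with 16.2, and 3 nuclei held 65.3% of its UMIs. Meg3, an imprinted RNA, had 10.99 and 9.56, and 3 nuclei held 83.0% of its UMIs in AHRmKO.

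Markers of other cell types stayed below free RNA in most lists. The 10 macrophage markers summed to 813 CPM in AHRfl/fl and 303 CPM in AHRmKO, 13.7% and 19.5% of their level in free RNA. Each of the 10 lay below its free RNA level in both. The 10 include Ptprc, which the choice of nuclei capped, so its low level shows nothing. The 7 fibroadipogenic markers, among them Pdgfra, which the choice of nuclei also capped, summed to 475 and 161 CPM, 16.0% and 26.1% of free RNA. The 5 adipocyte markers, with Lep at 0 in both, summed to 55.7 and 128 CPM against 70.9 and 85.6 CPM in free RNA, and Pparg led them in AHRmKO at 106 CPM. The AHRmKO sum rests on few nuclei. Its 112 Pparg UMIs lay in 5.96% of the nuclei, its 18 Plin1 UMIs in 0.662% and its 6 Adipoq UMIs in 0.331%. Tnmd, Sox10 and Retnlg, defining genes of tenocytes, Schwann cells and neutrophils, were at 0 in both libraries.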

How the data were processed

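Nuclei of 2 libraries of mouse tibialis anterior were sequenced with 10x Chromium 3′ chemistry, per the labels' protocols. The deposited matrices hold UMI counts per gene and barcode, made by the authors with Cell Ranger 7.0.1 on mm10, per the submitters' processing notes. Whether introns and strand were used in counting is not given in the sources used here, so overlapping genes are uncertain. The matrices list every barcode, with 151788328 and 113737134 UMIs in AHRfl/fl and AHRmKO. The nuclei were selected on these counts, and the members and gene lists were chosen with earlier results of these data known.

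Counts were summed over the nuclei of a library and given as CPM with exact Poisson intervals, shares with exact Clopper-Pearson intervals, and ratios as log2 of AHRmKO over AHRfl/fl with 0.5 CPM added and an exact conditional binomial interval, at 95%. Intervals cover counting error only, and no test was made with 1 library per group. Genes needed 30 UMIs, and a call 2-fold. The genes named were the 12 highest and 12 lowest ratios at 50 CPM or more, the 2 highest and 2 lowest of each list, the 8 most variable per library, the 8 highest and 8 lowest against Myh1 or Myh2 nuclei, and fixed markers. Gene models without a name and genes whose opposite strand holds a gene with more UMIs were passed over, 71 among the lowest and 3 among the highest. Other genes named, among them Myh8, Runx1, Trp63, Chrna1, Acta1, Utrn, Pygm and Npr3, were chosen after their values were seen. Doublets were kept, and an alternative left out the top Scrublet scores, 13 and 8 of the nuclei described. Some genes the rule names are not reported here. The calculations were tested on simulated data. Tools were Python 3.11.15, numpy 2.4.6, scipy 1.17.1, pandas 2.3.3, matplotlib 3.10.9 and scanpy 1.11.5.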

Additional observations from a re-analysis of the deposited data

How the results depend on the processing

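The share of barcodes that were IIb fibre nuclei depended on the limits. It was 1.71% in AHRfl/fl and 6.44% in AHRmKO from 1000 UMIs, 3.01% and 2.29% from 4000 UMIs, 2.61% and 3.09% with mitochondrial genes at most 1%, and 0.306% and 3.58% with no Myh3 UMI. In AHRfl/fl it was 1.48% with fibre genes at least 3%, 1.43% with 5 Myh4 UMIs and 0.759% with Ncam1 under 0.1%. The counts of genes 2-fold higher and lower were 1125 and 3186 at a minimum of 10 UMIs per gene and 373 and 855 at 100 UMIs. The count of lower genes was 1262 of 6016 tested after thinning (about the same share as the 1930 of 8901 before), 536 of 4890 with no Myh3 UMI (11.0%), 808 of 6262 with Ncam1 under 0.1% (12.9%), and 624 of 4632 when free RNA was also subtracted (13.5%). Higher genes were 27.0% of those called over all nuclei, 57.6% with no Myh3 UMI, 46.0% with Ncam1 under 0.1% and 52.2% with free RNA also subtracted, and these settings moved the median of all genes by 0.284, 0.204 and 0.208. The unequal UMI totals given above bear on the share with Ncam1 under 0.1%, and their part was not tested.

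The ratio of Lpcat2 was -0.85 from 4000 UMIs and -1.10 with mitochondrial genes at most 1%. That of Tshr was -3.87 with mitochondrial genes at most 1% and -1.28 with fibre genes at least 3%. Runx1 was at 0.01 with no Myh3 UMI. With Ncam1 under 0.1%, Dlg2 was at 0.08 and Dclk1 at 0.30, against -2.65 and -2.18 over all nuclei. Chrna1 was at 3.10 with Ncam1 under 0.1% and free RNA subtracted. The cause of these changes was not tested. Of 55 named genes past 2-fold, 43 were still past it with Ncam1 under 0.1%, and 2 had turned. The settings with the Ncam1 limit and those that subtract the free RNA of barcodes with 200 to under 500 UMIs were chosen after seeing the data. No paired analysis was possible because each group is 1 library. Depth limits genes with few UMIs, and the spread between animals is unknown.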
